A study of Mus musculus with 18 samples.

Results

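The genes described here are 10 transcription factor genes of the heart, Gata4, Gata6, Nkx2-5, Tbx2, Tbx5, Tbx20, Mef2a, Mef2c, Mef2d and Hand2, taken by their names. They are 10 of 35560 genes found in both deposited tables, and 10 of 10 passed the filter on low counts that left 14623 genes for testing. Their messenger RNA was counted in the hearts of 18 male wild-type C57BL/6 mice, 1 library per sample, in 3 groups of 6. In the first group, ISO+1 µm PS, the drug isoproterenol (ISO), which activates beta-adrenergic receptors, was injected under the skin at 2.5 mg/kg/day, and polystyrene (PS) particles 1 µm across were given by gavage at 50 mg/kg/day, both for 21 days. In the second group, ISO+100 nm PS, the particles measured 100 nm and everything else was the same. In the third group, ISO, mice received the same isoproterenol with water by gavage. Every group carried isoproterenol, so no library shows a heart without it, and the ages of the mice are not given in the sources used here. Libraries were made by 2 providers, taken as batch 1 and batch 2, with 4 and 2 libraries of ISO+1 µm PS, 5 and 1 of ISO+100 nm PS, and 3 and 3 of ISO. Replicates are separate libraries, and p-values measure the spread between them.

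These factors bind regulatory DNA in heart muscle cells, often side by side, and drive genes of the contractile apparatus, ion channels and the natriuretic peptides. GATA factors bind GATA sites, Nkx2-5 is the homeodomain factor of the NK family in the heart, T-box factors divide between activators such as Tbx5 and repressors such as Tbx2, MEF2 factors bind AT-rich sites and answer to calcium and kinase signals, and Hand2 is a basic helix-loop-helix factor. Several of them are made in other cells of the heart as well, GATA factors and Hand2 in fibroblasts among them. In bulk tissue, fewer cells of a type and less RNA per cell cannot be told apart.

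Heart muscle transcripts were abundant in all libraries: the contractile genes Myh6 and Tnnt2 had at least 6067 and 1927 CPM in each of the 18. CPM are counts scaled to a common library size with a normalization factor. The atrial muscle genes Myl7 and Sln were low except in 1 library, ISO+100 nm PS replicate 1, with 351 CPM of Myl7 and 176 CPM of Sln, against at most 5.51 and 1.00 CPM in the other 17. Not every atrial marker was low elsewhere: Nppa had 915 CPM in ISO+1 µm PS replicate 3 and 909 CPM in ISO replicate 5. Total counts were 14032257 to 22600570 per library. ISO replicate 2 stood apart from the other 17 libraries, with 13152 genes detected against 16562 to 18755, and it had the lowest value of its batch for 7 of the 10 genes. ISO+1 µm PS replicate 5 had the highest value of its batch for 7 of the 10.

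Promoter letters are shown for Mef2a and Nkx2-5, whose difference from ISO passed a test, and for Mef2d, whose ratio to Mef2a did. Of the 10 genes, 6 were matched in the RefSeq promoter table: Nkx2-5, Tbx20, Mef2a, Mef2c, Mef2d and Hand2. The letters are the 250 bases before the start of the gene, 5′ to 3′ on the gene's strand, with coordinates of GRCm38.p6. Capitals mark the GC box, the letters GGGCGG on either strand, a motif bound by Sp family factors.
Mef2a promoter, chr7:67372859-67373108, minus strand: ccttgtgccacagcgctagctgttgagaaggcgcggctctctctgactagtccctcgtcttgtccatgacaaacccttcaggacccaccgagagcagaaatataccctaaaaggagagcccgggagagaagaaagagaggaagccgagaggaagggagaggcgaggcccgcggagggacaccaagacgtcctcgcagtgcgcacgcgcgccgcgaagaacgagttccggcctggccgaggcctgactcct
Mef2d promoter, chr3:88142122-88142371, plus strand: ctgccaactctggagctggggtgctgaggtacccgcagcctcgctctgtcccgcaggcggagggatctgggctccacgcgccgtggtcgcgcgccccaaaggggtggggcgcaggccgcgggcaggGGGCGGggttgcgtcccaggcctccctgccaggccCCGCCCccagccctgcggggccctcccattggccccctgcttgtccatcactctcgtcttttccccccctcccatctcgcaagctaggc
Nkx2-5 promoter, chr17:26841566-26841815, minus strand: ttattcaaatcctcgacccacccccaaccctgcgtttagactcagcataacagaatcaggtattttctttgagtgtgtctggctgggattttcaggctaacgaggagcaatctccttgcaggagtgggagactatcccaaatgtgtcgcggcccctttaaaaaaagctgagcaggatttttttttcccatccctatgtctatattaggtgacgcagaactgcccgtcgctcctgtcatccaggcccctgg
The Mef2d window held 2 GC boxes and 73.2% G and C, whereas the Mef2a window held none and 61.6%, and the Nkx2-5 window none and 49.2%. Among 32841 promoter windows of the same length, 32.7% held a GC box and the median share of G and C was 52.4%. The Tbx20 and Hand2 windows held 2 GC boxes each, and 1 of the 3 Mef2c windows held 1. GATAA was found in the Hand2 window, 2 times, and in 1 of the 3 Mef2c windows, against 22.6% of all windows. AAGTG, the core of the Nkx2-5 site, was found in the Hand2 window and in 3 of the 3 Mef2c windows, against 40.7% of all. GGTGTG, the core of the T-box site, was found in 1 Mef2c window, against 16.3% of all. The MEF2 site was found in none of these windows and in 1.69% of all. Motifs were read on both strands, and each was counted on its own, whether or not it overlapped another. A match describes letters and is not a bound site.

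Per length, Nkx2-5 was the most abundant of the 10 in the PS libraries of batch 1. There the median level of Nkx2-5, in CPM per kilobase of the longest transcript, was 43.2 in ISO+1 µm PS, 40.9 in ISO+100 nm PS and 32.7 in ISO. In that batch Nkx2-5 stood clear of the next gene in both PS groups, its lowest library, at 41.9 CPM per kilobase with 1 µm PS and 37.98 with 100 nm PS, lying above the highest library of that gene, Gata4 at 26.8 with 1 µm PS and Mef2a at 21.5 with 100 nm PS. Gata4 and Nkx2-5 lay close in 2 of the 3 PS libraries of batch 2, where ISO+1 µm PS replicate 5 had 80.4 CPM per kilobase of Gata4 and 78.4 of Nkx2-5, and ISO+100 nm PS replicate 6 had 45.3 of Gata4 and 47.2 of Nkx2-5. In the ISO libraries of batch 1 Mef2a had a median of 32.9 CPM per kilobase, and its range overlapped that of Nkx2-5. The order in ISO was Mef2a, Nkx2-5, Gata4, Mef2d, Gata6, Mef2c, Hand2, Tbx20, Tbx5 and Tbx2, and each of the 9 neighbouring pairs overlapped in range. With 1 µm PS the order was Nkx2-5, Gata4, Mef2a, Mef2d, Hand2, Mef2c, Gata6, Tbx2, Tbx20 and Tbx5. There, 4 neighbouring pairs did not overlap: Nkx2-5 and Gata4, Mef2d and Hand2, Hand2 and Mef2c, and Tbx20 and Tbx5. With 100 nm PS the order had Mef2a before Gata4 and was otherwise the same, and the pairs Nkx2-5 and Mef2a, and Gata4 and Mef2d, did not overlap. The T-box genes were the last 3 in each of these batch 1 orders. The median of Tbx5 was 2.35 with 1 µm PS, 2.84 with 100 nm PS and 2.60 in ISO, in CPM per kilobase, and that of Tbx2 was 8.0 with 1 µm PS, 7.75 with 100 nm PS and 2.59 in ISO.

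**Figure D1:**
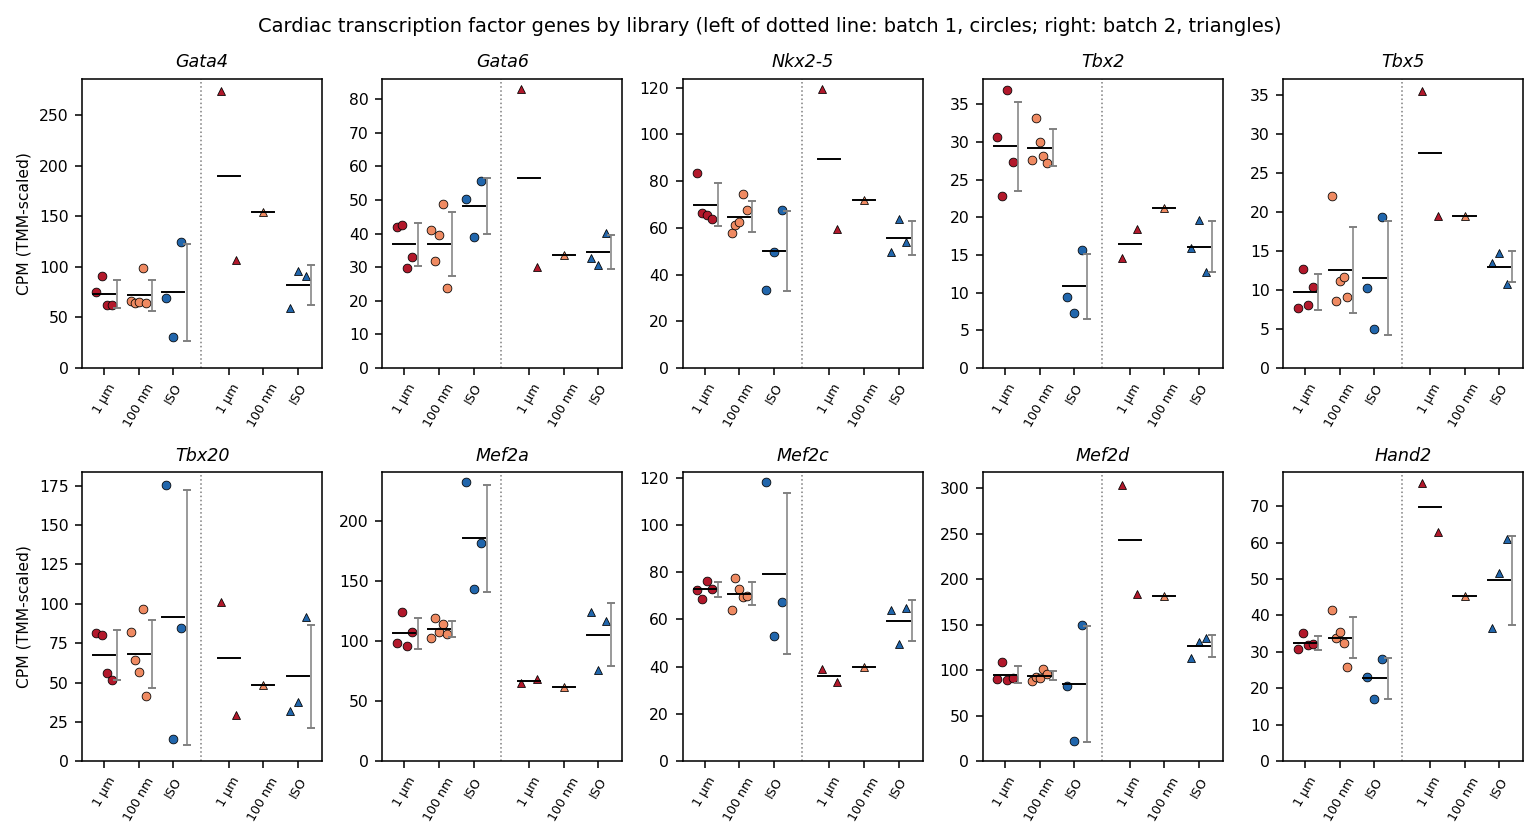
CPM of each gene (vertical axis) in each of the 18 libraries, 1 point per library, with ISO+1 µm PS (red), ISO+100 nm PS (orange) and ISO (blue) from left to right in batch 1 (circles) and batch 2 (triangles); lines are means, and grey bars are the SD where a group has at least 3 libraries of the batch. All PS points of Mef2a lie below the ISO points of their batch, and Tbx2 is high in the PS points of batch 1.

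Against ISO, 3 of the 10 genes passed the test when both particle sizes were combined: Mef2a was lower, and Tbx2 and Nkx2-5 were higher. The test was edgeR's quasi-likelihood test on a model with group and batch, and a gene passed at an adjusted p (Benjamini-Hochberg over 14623 genes) under 0.05. Among all genes 17.7% passed in that comparison, 6.8% higher and 10.9% lower. With 1 µm PS against ISO, 2 of the 10 passed, Tbx2 higher and Mef2a lower, beside 7.39% of all genes, 2.89% higher and 4.5% lower. With 100 nm PS against ISO, the same 2 genes passed in the same directions, beside 9.57% of all genes, 3.88% higher and 5.69% lower. The comparisons with ISO share the 6 ISO libraries. The median log2 fold change of the 10 genes was 0.39 with 1 µm PS, 0.31 with 100 nm PS and 0.36 for both sizes, beside -0.00, -0.02 and -0.01 over all genes tested.

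Mef2a, a MEF2 factor that in adult mouse heart muscle supports mitochondrial and sarcomere genes, was lower in PS-treated hearts, in batch 1 with 107 ± 13.1 CPM in ISO+1 µm PS (SD, n = 4) and 110 ± 6.5 CPM in ISO+100 nm PS (n = 5), against 186 ± 44.6 CPM in ISO (n = 3). In batch 1 it had 98.6, 125, 95.8 and 108 CPM in ISO+1 µm PS, 103, 119, 108, 114 and 106 CPM in ISO+100 nm PS, and 232, 143 and 182 CPM in ISO. In batch 2 it had 65.4 and 69.0 CPM in ISO+1 µm PS, 62.1 CPM in ISO+100 nm PS, and 124, 75.9 and 117 CPM in ISO. In 12 of 12 PS libraries Mef2a lay below the lowest ISO library of its batch, a separation in both batches that 1.27% of all genes showed in that direction and 2.04% in the other. The log2 fold change of Mef2a was -0.74 ± 0.15 with 1 µm PS (SE, edgeR adjusted p = 0.0133), -0.74 ± 0.15 with 100 nm PS (edgeR adjusted p = 0.0126) and -0.74 ± 0.13 for both (edgeR adjusted p = 0.00224). For both sizes it was -0.78 in batch 1 alone and -0.72 in batch 2 alone, and the call held without any 1 of the 18 libraries. With 100 nm PS the call was lost without ISO+100 nm PS replicate 6, the only library of that group in batch 2, at -0.72 (edgeR adjusted p = 0.0525). Leaving out ISO replicates 1 and 2 keeps ISO replicate 3 as the only ISO library of batch 1. In that fit Mef2a still passed in the 3 comparisons, at -0.72 for each. Without a batch term it did not pass for both sizes, at -0.58 (edgeR adjusted p = 0.104).

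Mef2c, the MEF2 factor needed for the heart tube and anterior heart field in the mouse embryo, did not pass. In batch 1 it had 72.6, 68.8, 76.2 and 73.0 CPM in ISO+1 µm PS, 64.2, 77.5, 73.0, 69.5 and 70.0 CPM in ISO+100 nm PS, and 118, 52.9 and 67.3 CPM in ISO. In batch 2 it had 38.9 and 33.5 CPM in ISO+1 µm PS, 40.0 CPM in ISO+100 nm PS, and 63.9, 49.6 and 64.9 CPM in ISO. The groups overlapped in batch 1, and in batch 2 the 3 PS libraries lay below the 3 ISO libraries. The share of all genes with such a separation in a single batch was not counted, for Mef2c or the other genes. The log2 fold change for both sizes was -0.36 ± 0.16 (SE, edgeR adjusted p = 0.114). Without ISO replicate 2 Mef2c passed, at -0.52 (edgeR adjusted p = 0.00977), and limma voom with quality weights called it lower for both sizes, at -0.50 (adjusted p = 0.0098).

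Mef2d, the MEF2 factor that in mouse mediates growth of the stressed heart, did not pass either. In batch 1 it had 90.3, 109, 89.5 and 91.7 CPM in ISO+1 µm PS, 88.3, 92.3, 91.5, 102 and 95.8 CPM in ISO+100 nm PS, and 82.8, 22.2 and 150 CPM in ISO. In batch 2 it had 303 and 184 CPM in ISO+1 µm PS, 182 CPM in ISO+100 nm PS, and 113, 131 and 136 CPM in ISO. In batch 1 the 9 PS libraries lay within a 1.24-fold range and the 3 ISO libraries within a 6.75-fold range around them, while in batch 2 the 3 PS libraries lay above the 3 ISO libraries. The log2 fold change for both sizes was 0.40 ± 0.26 (SE, edgeR adjusted p = 0.281). Without ISO replicate 3 Mef2d passed, at 0.83 (edgeR adjusted p = 0.0159).

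Within the MEF2 family the ratio of Mef2d to Mef2a was higher in PS-treated hearts. A ratio of 2 genes of the same library does not depend on how libraries are scaled. The ratio of Mef2d to Mef2a counts in batch 1 was 0.851 to 0.934 in ISO+1 µm PS and 0.773 to 0.900 in ISO+100 nm PS, against 0.356, 0.155 and 0.824 in ISO. In batch 2 the ratio was 4.64 and 2.67 in ISO+1 µm PS and 2.93 in ISO+100 nm PS, against 0.910, 1.72 and 1.16 in ISO. The 3 PS libraries of batch 2 lay above the 3 ISO libraries, and in batch 1 ISO replicate 3 reached into the PS range. The difference in mean log2 ratio of both PS groups from ISO was 1.35 over both batches, with 1.29 in batch 1 and 1.44 in batch 2. An exact permutation test of the group labels within batches, two-sided, gave p = 0.000455, and 0.00182 adjusted over the 4 ratios examined, where the smallest p that test allows is 0.000227. Without ISO replicates 1 and 2 the difference was 0.93 and the exact permutation test gave an adjusted p of 0.08. With ISO replicate 3 then the only ISO library of batch 1, the smallest p that test allows is 0.005.

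Shares of the MEF2 family were taken from the summed CPM per kilobase of the 3 MEF2 genes. Mef2a took 37.6% to 41.9% in batch 1 libraries of ISO+1 µm PS and 39.9% to 42.3% in those of ISO+100 nm PS, against 46.1%, 55.2% and 67.4% in those of ISO. Mef2d took 75.7% and 65.7% in the batch 2 libraries of ISO+1 µm PS and 65.7% in that of ISO+100 nm PS, against 39.1%, 52.9% and 44.4% in those of ISO. These shares did not overlap between PS and ISO. In batch 1 the Mef2d share did, at 33.5% to 37.7% in the PS libraries, against 10.7%, 20.2% and 38.9% in those of ISO. Mef2c held the smallest share of the 3 genes in the PS libraries of both batches. The ratio of Mef2c to Mef2a differed by 0.41 on the log2 scale (exact permutation test, adjusted p = 0.00818), batch 1 giving 0.69 and batch 2 giving -0.00. Without ISO replicates 1 and 2 that difference was 0.31 and the exact permutation test gave an adjusted p of 0.12.

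**Figure D2:**
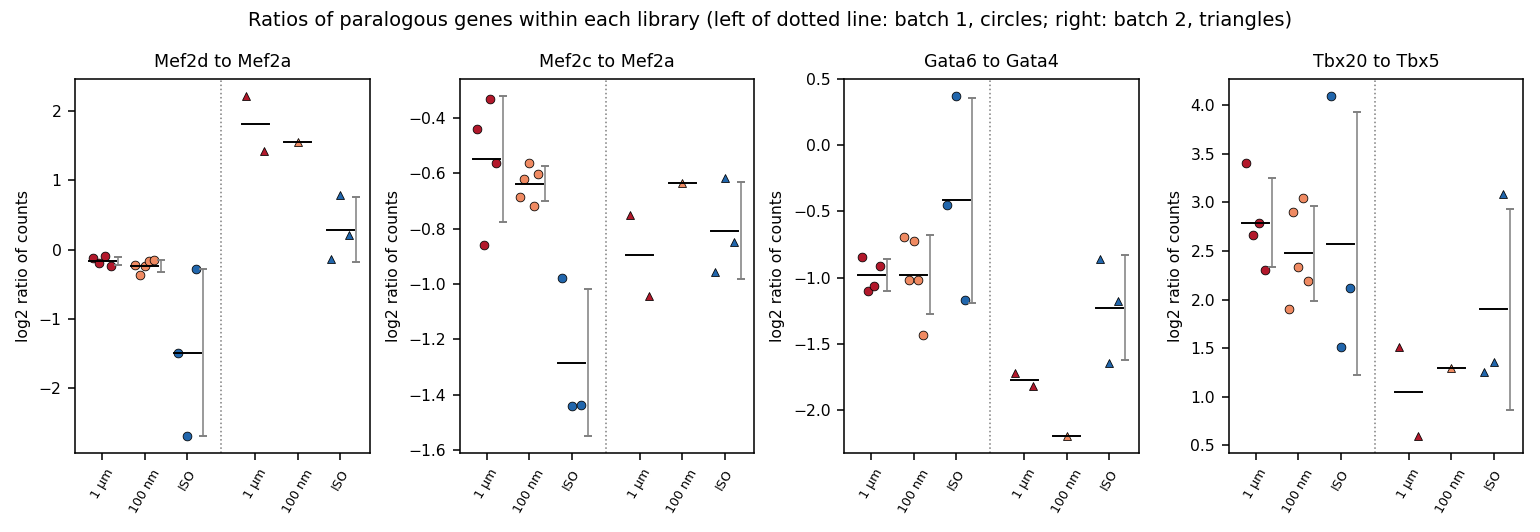
Log2 ratio of the counts of paralogous genes (vertical axis) in each library, with ISO+1 µm PS (red), ISO+100 nm PS (orange) and ISO (blue) from left to right in batch 1 (circles) and batch 2 (triangles); lines are means, and grey bars are the SD where a group has at least 3 libraries of the batch. The Mef2d to Mef2a ratio of PS libraries is above the ISO mean in both batches, by 1.29 and 1.44 on average.

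Tbx2, a T-box repressor that in the mouse embryo keeps the atrioventricular canal from taking on chamber identity, was higher in PS-treated hearts. Libraries of batch 1 had 30.6, 22.8, 36.8 and 27.4 CPM in ISO+1 µm PS, 27.6, 33.2, 30.0, 28.1 and 27.3 CPM in ISO+100 nm PS, and 9.38, 7.34 and 15.7 CPM in ISO. The batch 2 libraries had 14.6 and 18.4 CPM in ISO+1 µm PS, 21.2 CPM in ISO+100 nm PS, and 15.8, 19.6 and 12.8 CPM in ISO. The 9 PS libraries of batch 1 lay above the 3 ISO libraries, whereas in batch 2 the 1 µm PS libraries lay within the ISO range and the 100 nm PS library above it. The log2 fold change was 0.84 ± 0.25 with 1 µm PS (SE, edgeR adjusted p = 0.0499955), 0.97 ± 0.26 with 100 nm PS (edgeR adjusted p = 0.0301) and 0.91 ± 0.23 for both (edgeR adjusted p = 0.0147). For both sizes Tbx2 differed by 1.43 in batch 1 alone and by 0.21 in batch 2 alone. The difference between the batches, -1.25 ± 0.34, had an edgeR p of 0.00171 before and 0.0743 after adjustment, in a test that 0.328% of all genes passed. It passed without ISO replicate 2, at -1.02 (edgeR adjusted p = 0.0246), and without ISO replicate 3, at -1.63 (edgeR adjusted p = 0.00952), where 2922 of 14808 and 800 of 14833 genes passed, against 48 of 14623 with all libraries.

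Leaving out ISO replicates 1 and 2 keeps ISO replicate 3 as the only ISO library of batch 1. The Tbx2 call for both sizes held without any 1 library, but was lost in that fit, at 0.43 (edgeR adjusted p = 0.127). With 100 nm PS it was lost without ISO replicate 1 or ISO+100 nm PS replicate 1, 2, 3 or 6, the edgeR adjusted p then running from 0.0542 to 0.0644. With 1 µm PS it held in 3 of 18 such fits, those without ISO replicate 3, ISO replicate 5 or ISO+1 µm PS replicate 5. Some markers of smooth muscle and pericytes passed as higher beside it: 4 of 11 with 1 µm PS, 4 of 11 with 100 nm PS and 5 of 11 for both. Of all genes, 2.89%, 3.88% and 6.8% passed as higher. This was not particular to these cells, as 2, 3 and 4 of 11 endothelial and 0, 2 and 2 of 6 endocardial markers also passed as higher. The summed level of the smooth muscle and pericyte markers in batch 1 was 1786 to 2373 CPM in ISO+1 µm PS, 1658 to 2267 CPM in ISO+100 nm PS and 821 to 2267 CPM in ISO. In batch 2 it was 1656 and 1784 CPM in ISO+1 µm PS, 1909 CPM in ISO+100 nm PS and 1510 to 1708 CPM in ISO. The part of smooth muscle cells and pericytes in the Tbx2 result was not tested.

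Tbx5, the T-box activator whose loss in humans causes Holt-Oram syndrome, did not pass. Batch 1 gave 7.67, 12.7, 8.11 and 10.4 CPM in ISO+1 µm PS, 22.1, 8.60, 11.2, 11.7 and 9.14 CPM in ISO+100 nm PS, and 10.3, 5.02 and 19.4 CPM in ISO. Batch 2 gave 35.6 and 19.6 CPM in ISO+1 µm PS, 19.6 CPM in ISO+100 nm PS, and 13.5, 14.7 and 10.8 CPM in ISO. The groups overlapped in batch 1, and the 3 PS libraries of batch 2 lay above the 3 ISO libraries. Its log2 fold change for both sizes was 0.34 ± 0.29 (SE, edgeR adjusted p = 0.420). Batch 1 gave -0.08 and batch 2 gave 0.83. The difference between the batches was 1.04 ± 0.56 (SE, edgeR adjusted p = 0.351), and it passed without ISO replicate 2, at 1.41 (edgeR adjusted p = 0.0444). Without ISO replicate 3 the log2 fold change of Tbx5 for both sizes passed, at 0.76 (edgeR adjusted p = 0.0486). The highest library of batch 1, ISO+100 nm PS replicate 1, also had the highest sum of atrial markers, 4345 CPM over the 10 genes of the list, against 551 to 943 CPM in the ISO libraries of that batch. The part of atrial tissue in this value was not tested.

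Tbx20, a T-box factor needed in adult mouse heart muscle for contraction and rhythm, did not pass. Batch 1 libraries had 81.3, 80.5, 56.1 and 51.5 CPM in ISO+1 µm PS, 82.4, 64.2, 56.7, 96.9 and 41.8 CPM in ISO+100 nm PS, and 175, 14.3 and 84.3 CPM in ISO. The batch 2 libraries had 101 and 29.5 CPM in ISO+1 µm PS, 48.2 CPM in ISO+100 nm PS, and 32.2, 37.6 and 91.8 CPM in ISO. The ISO libraries of batch 1 spanned 12.3-fold and the 9 PS libraries there 2.32-fold, so the groups overlapped, as they did in batch 2. Its log2 fold change for both sizes was -0.21 ± 0.37 (SE, edgeR adjusted p = 0.724). The ratio of Tbx20 to Tbx5 differed by -0.28 on the log2 scale (exact permutation test, two-sided, adjusted p = 0.502), batch 1 giving 0.04 and batch 2 giving -0.76.

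Nkx2-5 passed as higher in the comparison of both sizes with ISO, and with neither size alone, and a correction for G and C content, described below, ended that call and turned its direction, to -0.26. Batch 1 gave 83.6, 66.5, 65.4 and 63.9 CPM in ISO+1 µm PS, 57.9, 61.2, 62.4, 74.7 and 67.7 CPM in ISO+100 nm PS, and 33.3, 49.8 and 67.6 CPM in ISO. Values in batch 2 were 120 and 59.7 CPM in ISO+1 µm PS, 72.03 CPM in ISO+100 nm PS, and 49.5, 63.8 and 53.8 CPM in ISO. The groups overlapped in both batches, with 2 of 6 libraries of ISO+1 µm PS and 3 of 6 of ISO+100 nm PS above every ISO library of their batch. Its log2 fold change was 0.56 ± 0.18 with 1 µm PS (SE, edgeR adjusted p = 0.0629), 0.39 ± 0.19 with 100 nm PS (edgeR adjusted p = 0.174) and 0.48 ± 0.16 for both (edgeR adjusted p = 0.0496). For both sizes it was 0.42 in batch 1 and 0.52 in batch 2. The call for both sizes held in 3 of 18 fits that left out 1 library, those without ISO replicate 3, ISO replicate 5 or ISO+1 µm PS replicate 6, and the others gave an edgeR adjusted p of up to 0.105.

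Hand2, a factor for the growth of the right ventricle in the mouse embryo, did not pass. Values in batch 1 were 30.8, 35.3, 31.95 and 32.1 CPM in ISO+1 µm PS, 41.5, 33.9, 35.5, 32.5 and 26.0 CPM in ISO+100 nm PS, and 23.2, 17.0 and 28.2 CPM in ISO. The batch 2 libraries had 76.3 and 63.0 CPM in ISO+1 µm PS, 45.3 CPM in ISO+100 nm PS, and 36.7, 51.5 and 60.9 CPM in ISO. The 6 libraries of ISO+1 µm PS lay above every ISO library of their batch, as did 4 of 6 of ISO+100 nm PS. The share of all genes that did so was not counted. Its log2 fold change was 0.48 ± 0.17 with 1 µm PS (SE, edgeR adjusted p = 0.0867), 0.41 ± 0.18 with 100 nm PS (edgeR adjusted p = 0.144) and 0.44 ± 0.16 for both (edgeR adjusted p = 0.0557), batch 1 giving 0.53 and batch 2 giving 0.17 for both. Without ISO replicate 3, ISO replicate 6 or ISO+100 nm PS replicate 6 it passed for both sizes, at 0.52, 0.52 and 0.53 (edgeR adjusted p of 0.039, 0.0362 and 0.0325). After the G and C correction it stood at -0.14 for both sizes (edgeR adjusted p = 0.524).

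Of 12 fibroblast markers, beside Hand2 and the GATA genes, 1 passed as higher with 1 µm PS, 7 with 100 nm PS and 6 for both. Of all genes, 2.89%, 3.88% and 6.8% passed as higher. The marker calls were not examined after the G and C correction or without ISO replicates 1 and 2. The summed level of the fibroblast markers in batch 1 was 4312 to 6182 CPM in ISO+1 µm PS, 3833 to 7343 CPM in ISO+100 nm PS and 2575 to 3606 CPM in ISO. In batch 2 it was 3900 and 4078 CPM in ISO+1 µm PS, 4795 CPM in ISO+100 nm PS and 3038 to 4167 CPM in ISO. The part of fibroblasts in the values of Hand2 and the GATA genes was not tested. Of the 12 markers of ventricular heart muscle none passed in any comparison by edgeR. At an unadjusted edgeR p under 0.05 were 3, 2 and 4 for 1 µm PS, 100 nm PS and both. Their summed level in batch 1 was 58682 to 68833 CPM in ISO+1 µm PS and 50302 to 64126 CPM in ISO+100 nm PS. In the ISO libraries of batch 1 it was uneven, at 37084, 103537 and 63339 CPM. Batch 2 gave 136211 and 102408 CPM in ISO+1 µm PS, 105541 CPM in ISO+100 nm PS and 100237 to 119809 CPM in ISO.

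Gata4, a zinc-finger factor of heart muscle growth, did not pass. Batch 1 libraries had 74.9, 91.3, 61.9 and 62.3 CPM in ISO+1 µm PS, 66.1, 64.3, 65.3, 98.8 and 64.6 CPM in ISO+100 nm PS, and 68.7, 30.2 and 125 CPM in ISO. Batch 2 gave 274 and 107 CPM in ISO+1 µm PS, 154 CPM in ISO+100 nm PS, and 59.3, 96.0 and 91.0 CPM in ISO. The groups overlapped in batch 1, and the 3 PS libraries lay above the 3 ISO libraries in batch 2. Its log2 fold change for both sizes was 0.39 ± 0.27 (SE, edgeR adjusted p = 0.330), batch 1 giving -0.06 and batch 2 giving 1.05. The difference between the batches was 1.14 ± 0.52 (SE, edgeR adjusted p = 0.257), and without ISO replicate 2 it passed, at 1.53 (edgeR adjusted p = 0.0157). Without ISO replicate 3 the log2 fold change of Gata4 for both sizes passed, at 0.81 (edgeR adjusted p = 0.0239), and after the G and C correction it stood at -0.07 (edgeR adjusted p = 0.871).

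Gata6, a GATA factor that overlaps with Gata4 in function in mouse heart muscle, did not pass. Values in batch 1 were 41.8, 42.6, 29.6 and 33.0 CPM in ISO+1 µm PS, 40.9, 31.8, 39.5, 48.7 and 23.9 CPM in ISO+100 nm PS, and 50.1, 39.1 and 55.5 CPM in ISO. Values in batch 2 were 83.1 and 30.1 CPM in ISO+1 µm PS, 33.5 CPM in ISO+100 nm PS, and 32.7, 30.7 and 40.2 CPM in ISO. The groups overlapped in both batches. The fitted log2 fold change for both sizes was -0.06 ± 0.22 (SE, edgeR adjusted p = 0.874). It was -0.39 in batch 1 alone and 0.32 in batch 2 alone.

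The ratio of Gata6 to Gata4 was lower in PS-treated hearts. In batch 1 its log2 value averaged -0.98 ± 0.23 in the 9 PS libraries and -0.42 ± 0.77 in the 3 ISO libraries (SD). In batch 2 it averaged -1.91 ± 0.25 in the 3 PS libraries and -1.23 ± 0.40 in the 3 ISO libraries (SD). The PS and ISO ranges did not overlap in batch 2, and in batch 1 ISO replicate 3 lay within the PS range. The difference over both batches was -0.61 (exact permutation test within batches, two-sided, adjusted p = 0.00818). It was -0.42 without ISO replicate 2 (exact permutation test, adjusted p = 0.063) and -0.36 without ISO replicates 1 and 2 (exact permutation test, adjusted p = 0.287).

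**Figure D3:**
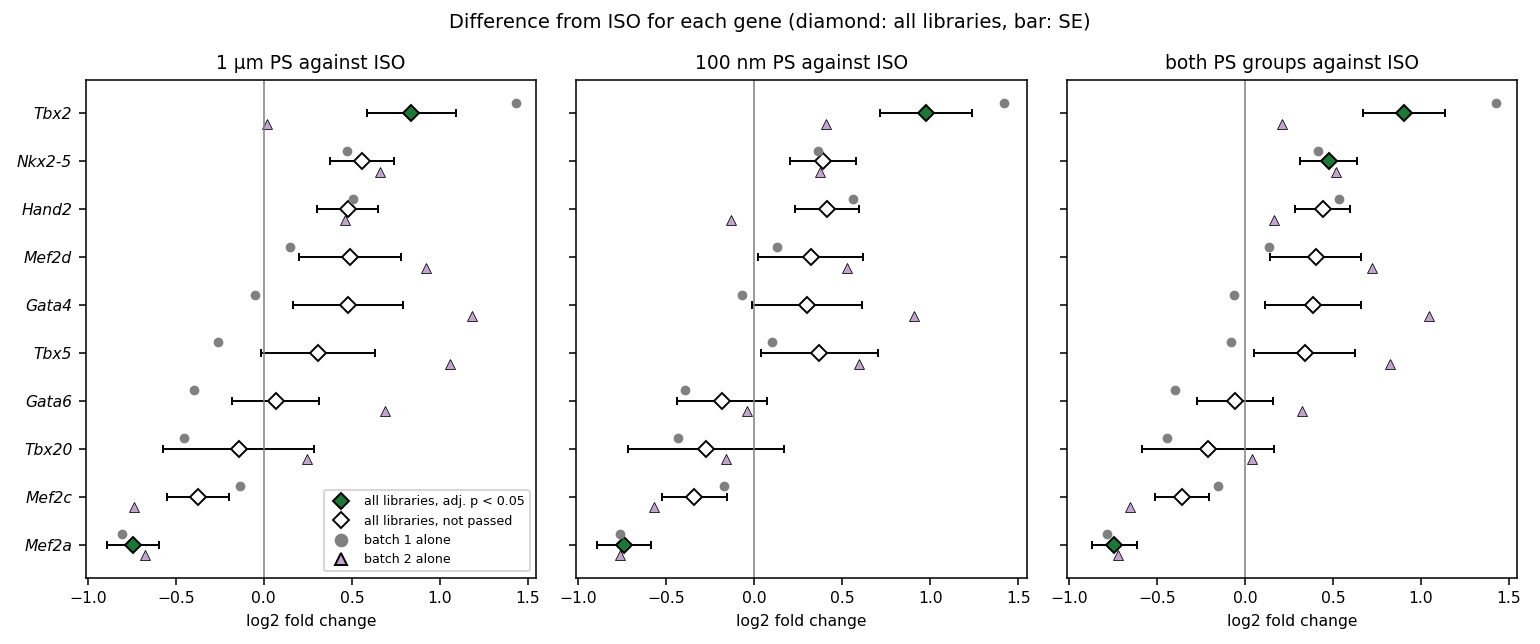
Log2 fold change from ISO (horizontal axis) of each gene for 1 µm PS, 100 nm PS and both groups together; diamonds are the values over 18 libraries with bars of 1 SE (green where the adjusted p is under 0.05), grey circles batch 1 alone and purple triangles batch 2 alone. Mef2a lies near -0.74 in all panels with both batches close to it, whereas for Tbx2, Gata4, Gata6 and Tbx5 the batches lie apart.

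Between the particle sizes, 0 of the 10 genes passed, beside 0 of all 14623 genes in edgeR, of which 49 had an unadjusted p under 0.05. DESeq2 and limma voom also called 0 of the 10. The log2 differences, 1 µm PS minus 100 nm PS, ran from -0.13 for Tbx2 to 0.25 for Gata6, with edgeR adjusted p of 1 throughout. For Mef2a the difference was -0.00 with a 95% interval of -0.32 to 0.32. The interval was -0.64 to 0.37 for Tbx2 and -0.22 to 0.56 for Nkx2-5. For Tbx20 it was the widest, -0.81 to 1.07. ISO+100 nm PS had 1 library in batch 2, so that batch adds little to this comparison.

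The 10 genes fell in order of the base composition of their transcripts. Over the 10, Spearman's rho between the share of G and C in the longest transcript and the log2 fold change from ISO was 0.87 with 1 µm PS, 0.84 with 100 nm PS and 0.92 for both (n = 10 genes, which share the libraries). Nkx2-5 (67.1%), Tbx2 (63.2%) and Hand2 (59.3%) are the richest in G and C, and Mef2c (40.8%), Mef2a (42.0%) and Tbx20 (42.3%) the poorest, beside a median of 49.8% over the genes tested. Across all genes, Spearman's rho between a library's deviation from its batch mean and the G and C share was 0.18 to 0.32 in ISO+1 µm PS, 0.12 to 0.37 in ISO+100 nm PS and -0.61 to 0.01 in ISO. When each library was corrected for G and C content, rho over the 10 genes was -0.01, -0.06 and 0.06. The correction takes the trend with G and C over all genes out of each library, so the loss of the order was largely set in advance. That correction moved the median log2 fold change of all genes for both sizes to -0.13, against -0.01 without it.

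After the correction Mef2a was still lower for both sizes, at -0.55 (edgeR adjusted p = 0.0156), with 1834 of 14623 genes passing, 167 of them higher. With a single size its log2 fold change was -0.53 for 1 µm PS (edgeR adjusted p = 0.0934) and -0.58 for 100 nm PS (edgeR adjusted p = 0.053), where 2 and 1 of all genes passed. Tbx2 stood at 0.28 for both sizes (edgeR adjusted p = 0.203) and Nkx2-5 at -0.26 (edgeR adjusted p = 0.318), so the direction of Nkx2-5 turned, as did those of Gata4 (-0.07), Hand2 (-0.14) and Tbx20 (0.17), none of which passed. The ratio of Mef2d to Mef2a kept a difference of 0.76 (exact permutation test, adjusted p = 0.0209), that of Mef2c to Mef2a 0.46 (exact permutation test, adjusted p = 0.00909) and that of Gata6 to Gata4 -0.51 (exact permutation test, adjusted p = 0.0209).

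**Figure D4:**
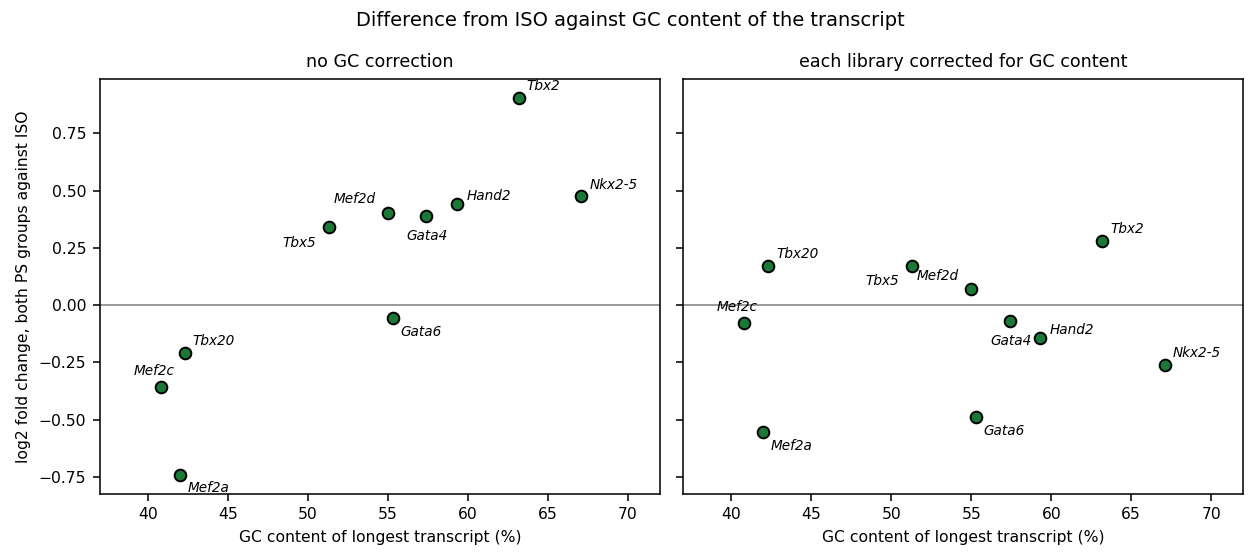
Log2 fold change of both PS groups from ISO (vertical axis) against the share of G and C in the longest transcript (horizontal axis, %), 1 point per gene, without and with a correction of each library for that share. The points climb from Mef2a and Mef2c to Tbx2 on the left (rho 0.92). On the right they show no such order (rho 0.06), which the correction itself largely sets, and Mef2a remains at -0.55.

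The 10 genes varied together in part. After each batch mean was subtracted, the closest pair over the 18 libraries was Gata4 and Mef2d, with a Pearson's r of 0.88, and next were Gata4 and Tbx5 at 0.76 and Tbx5 and Mef2d at 0.75. Mef2a ran opposite to Tbx2 at -0.71 and to Nkx2-5 at -0.71. Among 13257 genes with a mean of at least 1 CPM, those most like Mef2d were Hcfc1 (0.982) and Rnf123 (0.979), and those most like Gata4 were Wdtc1 (0.975) and Kremen1 (0.972). Most like Mef2a were Mzt1 (0.962) and Naa30 (0.961), and most like Tbx2 were Pqbp1 and Palm (0.968 each). For Nkx2-5 they were Pcbp4 (0.957) and Atp9a (0.943), for Mef2c Ndfip1 (0.935) and Slc35a1 (0.922), and for Tbx20 Strn (0.941) and Pcgf5 (0.938). Hand2, with Zcchc3 (0.882) and Chd3 (0.858), Tbx5, with Igsf1 (0.873) and Maged1 (0.842), and Gata6, with Pcyox1 (0.926) and Tob1 (0.905), follow. These values describe 18 libraries that share library effects, depth and base composition. Only batch means were subtracted, so the difference between PS and ISO remains in them, as does ISO replicate 2, which stood apart.

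Of 34 other transcription factors of the heart tested on a list of 39, none passed with 1 µm PS by edgeR, beside 7.39% of all genes, with 4 at an unadjusted p under 0.05. Of the same 34, 2 passed with 100 nm PS and for both sizes (5.88%, beside 9.57% and 17.7% of all genes), in each case Tbx1 and Nfatc4, both higher. Tbx1, a T-box factor of the outflow tract in the embryo, had a log2 fold change of 1.99 ± 0.64 for both sizes (SE, edgeR adjusted p = 0.0377). Nfatc4, which carries calcineurin signals to hypertrophic genes, had 0.66 ± 0.22 (SE, edgeR adjusted p = 0.0433). Both calls were lost without ISO replicates 1 and 2, at 1.20 and 0.32, and after the G and C correction, at 1.52 and 0.14. The median log2 fold change of the 34 was 0.17 with 1 µm PS, 0.12 with 100 nm PS and 0.18 for both.

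A list of partners and regulators of these factors held 28 genes. Of these, 3 were higher with 1 µm PS, 3 were higher with 100 nm PS, and for both sizes 5 were higher and 1 lower. These shares, 10.71%, 10.71% and 21.43%, lie near the 7.39%, 9.57% and 17.7% of all genes that passed in either direction. As higher alone, 2.89%, 3.88% and 6.8% of all genes passed. Zfpm1, a cofactor that binds GATA factors, was higher by 0.91 ± 0.16 for both sizes (SE, edgeR adjusted p = 0.00233), batch 1 giving 0.75 and batch 2 giving 1.10. Tle3, a Groucho family corepressor, was higher by 0.74 ± 0.15 (SE, edgeR adjusted p = 0.00417). Hdac7, a class IIa histone deacetylase that holds MEF2 factors in check, was higher by 0.99 ± 0.28 (SE, edgeR adjusted p = 0.0216). Camta2, a coactivator for Nkx2-5 in mouse, was higher by 0.58 ± 0.16 (SE, edgeR adjusted p = 0.0198). Mapk7, the kinase ERK5 that phosphorylates MEF2 factors, was higher by 0.92 ± 0.29 (SE, edgeR adjusted p = 0.0344). Ppargc1a, a coactivator of mitochondrial genes that MEF2 factors bind, fell by 0.62 ± 0.20 (SE, edgeR adjusted p = 0.0408). Zfpm1, Tle3 and Mapk7 still passed without ISO replicates 1 and 2, at 0.73, 0.63 and 0.49, and Hdac7, Camta2 and Ppargc1a did not. After the G and C correction, Tle3 passed, at 0.46 (edgeR adjusted p = 0.0321), and the other 5 did not, Zfpm1 standing at 0.19.

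Known myocyte targets of the 10 factors were measured through 37 genes, of which 2 passed in each comparison with ISO, both lower. That share was 5.41%, beside 4.5% of all genes that were lower with 1 µm PS, 5.69% with 100 nm PS and 10.9% for both. Pln, the inhibitor of the sarcoplasmic calcium pump, had a log2 fold change of -0.72 ± 0.21 with 1 µm PS (SE, edgeR adjusted p = 0.0438), -0.91 ± 0.22 with 100 nm PS (edgeR adjusted p = 0.0205) and -0.82 ± 0.18 for both (edgeR adjusted p = 0.00693). Kcnj3, a subunit of the acetylcholine-activated potassium channel, which is also on the list of atrial markers, had -0.95 ± 0.23 with 1 µm PS (SE, edgeR adjusted p = 0.0253), -1.01 ± 0.24 with 100 nm PS (edgeR adjusted p = 0.0206) and -0.98 ± 0.20 for both (edgeR adjusted p = 0.00455). Kcnj3 had a log2 fold change of -0.92 for both sizes both without ISO replicates 1 and 2 and after the G and C correction, and passed each time. Pln had -0.78 and passed without those libraries, and had -0.49 after the correction (edgeR adjusted p = 0.11). With single sizes, Kcnj3 lost its call with 1 µm PS (edgeR adjusted p = 0.0507) and 100 nm PS (edgeR adjusted p = 0.0632) without ISO replicates 1 and 2, and Pln lost it with 1 µm PS (edgeR adjusted p = 0.0574). The median of the 37 was -0.05 with 1 µm PS, -0.16 with 100 nm PS and -0.10 for both.

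Several of these genes overlap another gene on the opposite strand in the GENCODE M21 annotation. Overlap was read from whole gene spans, introns included, and not from exons. Whether counting used strand is not stated, so reads from exon stretches that such a pair may share could not be told apart. Hand2 overlaps Hand2os1, which had 23.9 to 74.1 CPM. Mef2a overlaps Lysmd4, which had 10.5 to 21.1 CPM. Mef2d overlaps 1700113A16Rik, with up to 20.2 CPM, and Gata6 overlaps 1010001N08Rik, with up to 8.39 CPM. In the batch 2 table, where estimated counts need not be whole, the value was not whole in 6 of 6 libraries for Mef2a and Mef2d, in 5 for Hand2 and in 3 for Gata6.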

How the data were processed

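The authors deposited a table of raw counts per gene for batch 1 and, for batch 2, a table of estimated counts, of which 19.63% of nonzero values were not whole and were rounded here. Per the submitters' processing notes, the build was GRCm39 (mm39), and the tools were DESeq2, featureCounts 1.5.0-p3, StringTie 1.3.3b, HISAT2 2.0.5 and fastp, with no role given for any. The tables were joined on 35560 genes, 22144 by identifiers and 13416 by symbol. These held 85.16% to 99.54% of a library's counts, and 215 batch 1 entries without a name (0.16% to 0.388% of counts) were left out. In batch 2 the joined genes held 95.8% and 93.1% of counts in ISO+1 µm PS and 93.5% in ISO+100 nm PS. In the ISO libraries of batch 2 they held 85.2%, 87.4% and 87.2%. The part of this difference in the batch 2 values was not tested. No pair of libraries of the same group and batch looked like a duplicate, and other pairs were not compared.

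The fits used edgeR 4.0.16 under R 4.3.3 (TMM factors, filterByExpr with a minimum count of 10, robust quasi-likelihood fit of group and batch, 14 residual degrees of freedom), tested on simulated data. Intervals of 95% use those degrees of freedom. Log2 CPM used a prior count of 2. Alternatives used DESeq2 1.42.0, limma 3.58.1 and a spline on GC content with 5 degrees of freedom. Transcript length and G and C share were read from each gene's longest GENCODE M21 transcript, found for 99.79% of tested genes.

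The 10 genes and all lists were chosen with earlier results of these data known. The text names the 10 genes, the genes of each pathway list that passed against ISO (at most 5 by p per list and comparison), and the 2 genes most correlated with each of the 10. Ppargc1a was the sixth of its list to pass for both sizes and was named after its values were seen. Pathway lists under other settings were examined after seeing the data. Libraries with the same replicate number did not vary together (correlations of -0.343 to 0.114), so numbers were not used as pairs.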

Additional observations from a re-analysis of the deposited data

Results flagged for a closer look

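In 2 of 30 groups (10 genes by 3 treatments, 6 libraries each), 1 library lay far from the others, and chance flags about 1 in 20 groups. Gaps and ranges were taken on log2 CPM after a fitted batch term was subtracted, and not on the CPM printed here. Gata6 had 83.1 CPM in ISO+1 µm PS replicate 5, the gap to the next library being 0.661 of the range of its group, above the limit of 0.625 for 6 libraries. Tbx5 had 22.1 CPM in ISO+100 nm PS replicate 1, with a gap of 0.672 of the range. In plain CPM this library does not stand apart, as ISO+100 nm PS replicate 6, of batch 2, had 19.6 CPM. The values of a group span both batches, and Gata6 replicate 5 is a batch 2 library.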

How the results depend on the processing

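In batch 2 alone, without a batch term, with the replicate block, and with the GC correction, with or without that block, the number of the 10 genes that passed was 0 with 1 µm PS and 0 with 100 nm PS, against 2 for each as reported, and at most 11 and 7 of all genes passed there. For both sizes, where 3 passed, it was 0 in batch 2 alone, 1 without a batch term, 1 with the replicate block (Mef2a), 1 with the GC correction (Mef2a) and 0 with both, where 272, 709, 467, 1834 and 0 of all genes passed. Without ISO replicates 1 and 2 it was 1 in each comparison, Mef2a, with ISO replicate 3 the only ISO library left in batch 1. With 1 µm PS it was 1 with upper-quartile factors, 1 with no filter, 0 with only the groups compared and 4 at an adjusted p under 0.1. Leaving out 1 library gave 1 to 5 with 1 µm PS, 0 to 3 with 100 nm PS, 2 to 7 for both and 0 to 0 between the sizes, the highest for 1 µm PS and for both without ISO replicate 3, where 2334 and 3458 of all genes passed. Under limma voom Tbx2 did not pass and Mef2c did. No gene of the 10 had a batch difference that passed, against 4 without ISO replicates 1 and 2 (0 to 4 without 1 library), where 1770 of 15028 genes passed, against 48 of 14623. Nkx2-5 turned to -0.26 with the GC correction and -0.29 with the block added. The Tbx20 to Tbx5 ratio turned to 0.04 in batch 1 alone, 0.10 (0.0958) with GC removed and 0.05 (0.052) without ISO replicate 1, its range without 1 library being -0.62 to 0.05. The Gata6 to Gata4 ratio no longer passed in batch 1 alone (-0.56) or without ISO replicates 1 and 2 (-0.36), and ran from -0.82 to -0.42 without 1 library. Without those replicates the Mef2c to Mef2a ratio stood at 0.31 and Mef2d to Mef2a at 0.93, and without 1 library they ran from 0.32 to 0.49 and from 1.04 to 1.67. The causes were not tested. Of 980 single-gene values against ISO under other settings, 826 kept direction and side of the threshold. Depth of 14032257 to 22600570 counts left each of the 10 genes well above the filter. Having 6 libraries a group in 2 uneven batches also limits precision, and these limits were not compared.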
